A study of Oryza sativa Indica Group with 6 samples.

Results

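The cellulose synthase (CESA) and cellulose synthase-like (CSL) genes of rice were compared between seedlings that overexpress *Abp57*, an auxin-binding protein gene, and wild-type seedlings. The members were taken by name, as every gene that the NCBI rice gene table calls CESA, CSLA, CSLC, CSLD, CSLE, CSLF or CSLH with a number. This gave 35 genes, of which 20 had a transcript cluster of their own on the array, among 14662 genes with such a cluster. The overexpressing group was 3 arrays of T3 seedlings of the *indica* cultivar MR219, obtained by *Agrobacterium*-mediated transformation, and the control group was 3 arrays of wild-type MR219. All seedlings were 10 days old, the RNA on an array came from its own pool of at least 3 seedlings, a biological replicate, and root and shoot were extracted together. The promoter that drives *Abp57* and the number of independent transgenic lines are not given in the sources used here, and the signal of *Abp57* itself was not analysed here.

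Cellulose is made at the plasma membrane by complexes of CESA subunits. In rice *CESA1*, *CESA2*, *CESA3*, *CESA5*, *CESA6* and *CESA8* are counted with the primary wall of growing cells, whereas *CESA4*, *CESA7* and *CESA9* are the subunits of the thick secondary wall of vessels and fibres. The CSL genes encode related glycosyltransferases of other wall polysaccharides. CSLA proteins make mannans and CSLC proteins the glucan backbone of xyloglucan, CSLD genes act in root hairs and other growing or dividing cells, and CSLF and CSLH proteins make the mixed-linkage glucan typical of grass walls. The product of CSLE proteins is not settled.

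The array measured 5 of the 6 primary-wall CESA genes, all but *CESA3*, and 2 of the 3 secondary-wall genes, all but *CESA7*. It measured 5 of 6 CSLA genes, 2 of 5 CSLC, 1 of 4 CSLD, 3 of 3 CSLE, 1 of 7 CSLF and 1 of 1 CSLH. The other 15 members, among them *CSLD1*, *CSLD4* and every CSLF gene but *CSLF6*, had no cluster paired with them alone and were not analysed here. Each measured member had a single such cluster. Along the array's cluster identifiers 96.5% of the paired genes lie on the chromosome that leads among their 20 nearest neighbours, but *CSLA7*, a gene of chromosome 7, was paired with a cluster among those of chromosome 2, and *CSLD2*, of chromosome 6, with one among those of chromosome 8. These 2 names are therefore uncertain. The gene called *CSLA1* here (LOC4328585) carries *CSLA9* as a further name in the table, and *CSLA9* below is LOC4341571. The probes of the clusters were not used here, so sharing of probes between these homologous genes was not tested, and log2 signals of different genes are not set against each other.

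The medians of the 6 arrays lay between 5.21 and 5.30 on the log2 scale. Control replicate 3 and overexpressing replicate 1 had the lowest array weights that limma estimated over all clusters, 0.474 and 0.642, where the other 4 arrays had 1.18 to 1.58. The paper lists a higher RNA integrity number for its control sample 3 and overexpressing sample 3 than for the others of their groups. The part of RNA integrity in the signals was not tested. Leaf genes were seen in every array, with 8 of 20 listed markers measured, and the log2 of their summed signal was 13.47 to 13.68 in overexpressing seedlings and 12.74 to 13.29 in controls. For 4 of 20 listed root markers it was 8.48 to 8.80 in overexpressing seedlings and 8.38 to 8.44 in controls. The summed signals of both lists did not overlap between the genotypes, as those of 13.0% of single clusters did not. A sum follows the brightest genes of its list. The brightest leaf marker, *RBCS*, had 12.93, 12.81 and 13.05 in overexpressing seedlings and 12.76, 12.72 and 11.66 in controls. Its lowest signal was thus on control replicate 3. Gene by gene the picture was mixed. At an unadjusted p under 0.05, where 6.88% of all clusters passed, 2 of the 8 leaf markers were higher, 0 were lower and the list median was a log2 fold change of 0.36. *RCA*, encoding Rubisco activase, had 10.93, 11.07 and 11.34 in overexpressing seedlings and 10.32, 10.14 and 10.83 in controls, so that its log2 fold change by limma was 0.68, with a standard error of 0.21 and an adjusted p of 0.638. *CHLP*, of chlorophyll synthesis, had 8.68, 8.40 and 8.48 against 8.20, 7.93 and 7.89 in controls. The log2 fold change of *CHLP* was 0.51 (0.15, adjusted p = 0.623 by limma). Of the leaf markers not called, *PORA*, *RBCS* and *CAB1R* had log2 fold changes of 0.58, 0.55 and 0.21. *GLK1*, *CAB2R* and *GLK2* had -0.24, -0.05 and 0.00. None of the 4 root markers was called. Relative to the mean of the 6 arrays, the root list's medians were 0.23, -0.04 and -0.07 in overexpressing replicates 1, 2 and 3 and -0.19, 0.05 and 0.12 in the controls, so that the genotypes overlapped by that measure. The part of leaf and root RNA in the results below was not tested. Fewer cells of a type and less RNA per cell cannot be told apart in RNA of whole seedlings.

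Few CESA or CSL genes passed a test for a difference between the genotypes, as few of all clusters did. At an unadjusted p under 0.05 limma called 1 of the 20 members, *CSLE2*, which was lower, and 0 as higher, where it called 6.88% of all 41770 clusters, 3.62% as lower and 3.27% as higher. None of the 20 passed fold over 2 with that p (0.508% of all clusters), and none passed an adjusted p under 0.05 (0.0144% of all clusters), the lowest adjusted p among them being 0.721. By the methods' test, an unpaired analysis of variance for each cluster, 0 of the 20 passed the unadjusted p. Mean signals were higher in overexpressing seedlings for 11 members and lower for 9, with log2 fold changes from -0.39 to 0.68. Their median was 0.08, and the median over all clusters was -0.03.

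**Figure D1:**
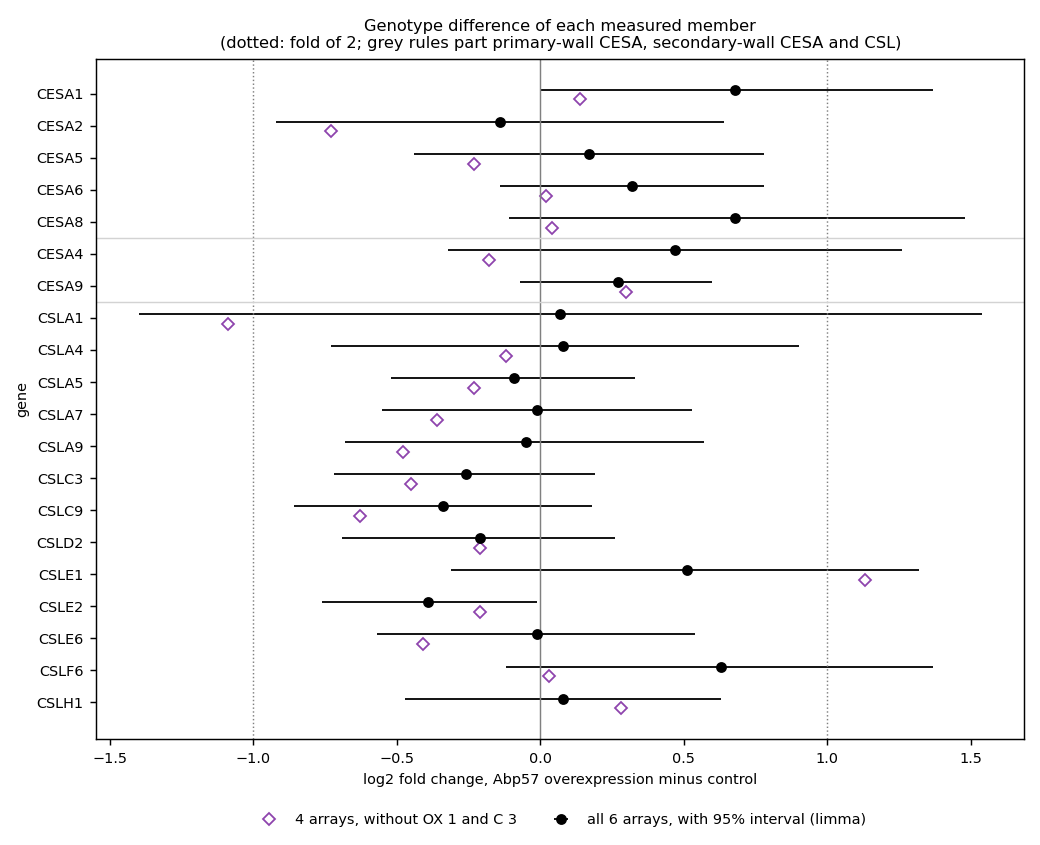
Log2 fold change of overexpressing over control seedlings for the 20 measured members, with all 6 arrays (filled, bar: 95% interval from limma) and with 4 arrays (open, without overexpressing replicate 1 and control replicate 3). The intervals of all members but *CSLE2* reach 0, and without the 2 arrays *CESA1*, *CESA8* and *CSLF6* come to lie between 0.03 and 0.14 while *CSLA1* has -1.09, against 0.07 on 6 arrays, and *CSLE1* has 1.13, against 0.51.

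Of the 5 primary-wall genes measured, 4 had a higher mean in overexpressing seedlings, none passed the unadjusted p, and the class median was a log2 fold change of 0.32. *CESA1*, a core subunit of the primary-wall complex, had log2 signals of 10.36, 9.57 and 9.63 in overexpressing replicates 1, 2 and 3 against 9.51, 9.40 and 8.59 in control replicates 1, 2 and 3. The genotypes did not overlap for *CESA1*, as for 13.0% of all clusters in one direction or the other and for 5.51% with the overexpressing arrays higher, but overexpressing replicates 2 and 3 lay only just above control replicate 1. Its log2 fold change was 0.68 (standard error 0.30), with an unadjusted p of 0.0502 from limma and an adjusted p of 0.726, and it was 0.39 without control replicate 3. The unadjusted p from limma was 0.0456 with an intensity trend, 0.0316 without control replicate 1 and 0.0488 without overexpressing replicate 2. By the same test it was 0.176 without overexpressing replicate 1, 0.153 without control replicate 3 and 0.124 with array weights. With a further normalization by quantiles or cyclic loess it was 0.066 or 0.0783 in limma, and the methods' test gave 0.151.

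*CESA8*, another primary-wall subunit, had 10.37, 9.50 and 9.57 in overexpressing seedlings and 9.55, 9.44 and 8.39 in controls. Overexpressing replicate 1 stood above and control replicate 3 below 4 arrays that lay close together. The log2 fold change was 0.68 (0.35, adjusted p = 0.747 by limma), with a 95% interval from -0.11 to 1.48, so that neither equal signals nor a difference of more than 2-fold is outside it. The fold change ran from 0.32 without control replicate 3 to 0.90 without control replicate 1, where the unadjusted p from limma was 0.0457. *CESA6* had 7.64, 7.39 and 7.18 in overexpressing seedlings and 7.25, 7.28 and 6.73 in controls, with a log2 fold change of 0.32 (0.20). *CESA5* had 8.43, 7.81 and 7.85 against 8.36, 7.76 and 7.45 in controls, with a log2 fold change of 0.17 (0.27). In both genes the same 2 arrays again held the highest and the lowest signal, and the rest of the genotypes overlapped.

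*CESA2* alone among the measured primary-wall genes had a lower mean in overexpressing seedlings. It had 7.44, 6.22 and 6.79 in overexpressing seedlings and 7.20, 7.26 and 6.40 in controls, so its lowest signal was in overexpressing replicate 2, and control replicates 1 and 2 lay near overexpressing replicate 1. The log2 fold change was -0.14 (0.34), and it ran from -0.45 to 0.16 without 1 array. A difference between *CESA2* and the other primary-wall genes was not tested.

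**Figure D2:**
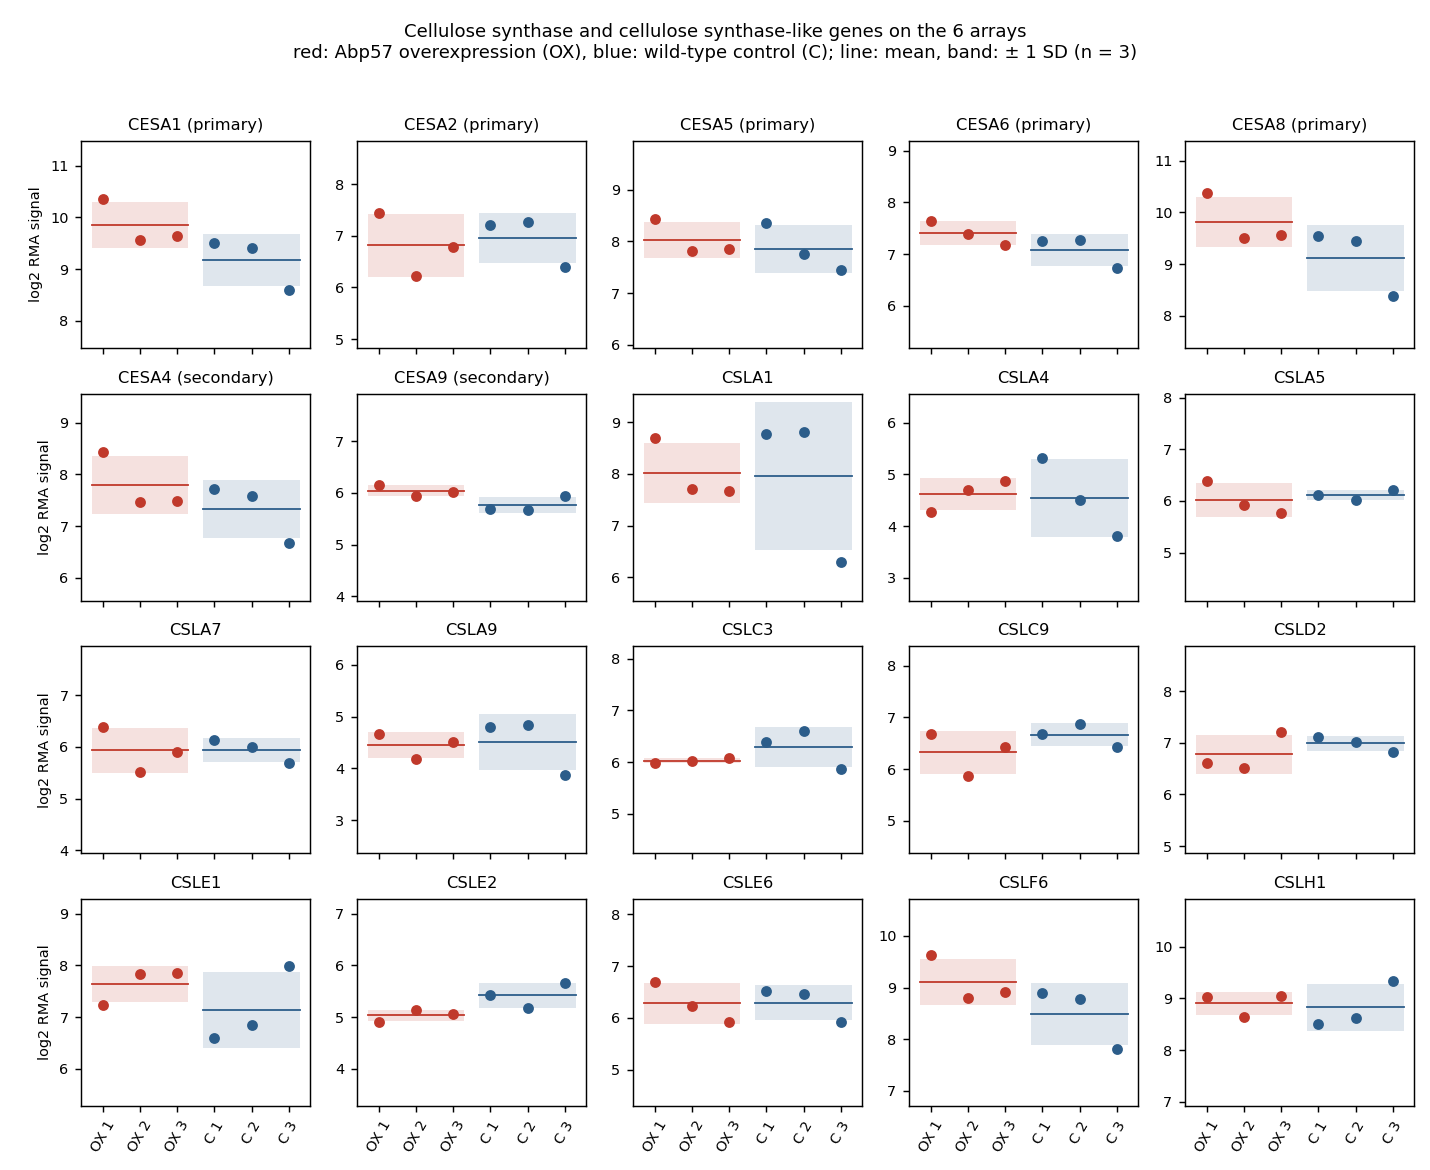
Log2 RMA signal (vertical axis, each panel spanning the same number of log2 units) of each of the 20 members on overexpressing replicates 1 to 3 (OX, red) and control replicates 1 to 3 (C, blue), with the mean as a line and 1 SD as a band (n = 3). *CESA1* and *CSLE2* are the 2 of 20 members whose genotypes do not overlap, where those of 13.0% of all clusters do not. Control replicate 3 is the lowest array in 11 panels and for 18.7% of all clusters.

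The 2 measured secondary-wall genes had a median log2 fold change of 0.37 and neither passed the unadjusted p. *CESA4* had 8.44, 7.47 and 7.48 in overexpressing seedlings and 7.72, 7.59 and 6.68 in controls, a log2 fold change of 0.47 (0.34, adjusted p = 0.819 by limma). Overexpressing replicate 1 and control replicate 3 were once more the extremes, and overexpressing replicates 2 and 3 lay below control replicates 1 and 2, so that without these 2 arrays the fold change was -0.18. *CESA9* had 6.16, 5.95 and 6.02 in overexpressing seedlings and 5.69, 5.68 and 5.95 in controls, a log2 fold change of 0.27 (0.15, adjusted p = 0.761 by limma). The genotypes met at overexpressing replicate 2 and control replicate 3, and the fold change was 0.30 without the 2 arrays and 0.36 without control replicate 3 alone, with an unadjusted p of 0.0459 from limma. For *CESA9* that p was 0.103 on all 6 arrays and 0.108 to 0.24 without any other single array. Although both proteins belong to the secondary-wall complex, control replicate 3 lay 0.89 below the mean of the 6 arrays for *CESA4* and 0.05 above it for *CESA9*.

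*CSLF6*, the main synthase of mixed-linkage glucan in cereals, had 9.62, 8.80 and 8.92 in overexpressing seedlings and 8.89, 8.77 and 7.81 in controls. Its log2 fold change was 0.63 (0.32, adjusted p = 0.749 by limma), and 0.03 without the 2 arrays. Without control replicate 1 it was 0.83, with an unadjusted p of 0.0468 from limma. That p was 0.0886 on all 6 arrays and 0.0755 to 0.29 without any other single array. *CSLH1*, a synthase of the same glucan, had 9.03, 8.65 and 9.04 in overexpressing seedlings and 8.51, 8.63 and 9.34 in controls, with a log2 fold change of 0.08 (0.24). Control replicate 3 was thus the lowest array for *CSLF6* and the highest for *CSLH1*.

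The 5 measured CSLA genes had log2 fold changes from -0.09 to 0.08 and a median of -0.01, none passing the unadjusted p. In some of them these small differences went with wide spreads within the genotypes. The controls spanned 2.51, 1.52 and 0.96 for *CSLA1*, *CSLA4* and *CSLA9*, but 0.44 and 0.19 for *CSLA7* and *CSLA5*. *CSLA1* had 8.69, 7.71 and 7.67 in overexpressing seedlings and 8.77, 8.80 and 6.30 in controls, a log2 fold change of 0.07 with a 95% interval from -1.40 to 1.54. Its range of 2.51 over the 6 arrays was at the percentile 99.3 of all clusters, with control replicate 3 at its low end. Without that array the fold change was -0.76, with an unadjusted p of 0.0368 from limma. That p was 0.916 on all 6 arrays and 0.494 to 0.78 without any other single array. *CSLA9* had the same arrays high and low on a smaller scale, with 4.67, 4.18 and 4.51 in overexpressing seedlings and 4.80, 4.84 and 3.88 in controls. *CSLA4*, *CSLA5* and *CSLA7* had log2 fold changes of 0.08 (0.35), -0.09 (0.18) and -0.01 (0.23).

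*CSLC9*, of the xyloglucan backbone group, had 6.67, 5.87 and 6.43 in overexpressing seedlings and 6.68, 6.88 and 6.43 in controls, with a log2 fold change of -0.34 (0.23). *CSLC3* had 5.99, 6.03 and 6.07 in overexpressing seedlings, against 6.39, 6.61 and 5.87 in controls, a log2 fold change of -0.26 (0.20). The 3 overexpressing arrays lay within 0.08 of one another for *CSLC3*, whereas the controls spread over 0.74 on both sides of them. Its fold change was -0.47 without control replicate 3, with an unadjusted p of 0.0154 from limma, and -0.10 without control replicate 2. That p was 0.224 on all 6 arrays and 0.278 to 0.62 without any single array other than control replicate 3. *CSLD2* had 6.60, 6.52 and 7.21 against 7.12, 7.02 and 6.83 in controls, with a log2 fold change of -0.21 (0.21), and -0.43 without overexpressing replicate 3, with an unadjusted p of 0.038 from limma. For *CSLD2* that p was 0.327 on all 6 arrays and 0.228 to 0.709 without any other single array.

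*CSLE2* was the member with the lowest p. It had 4.91, 5.13 and 5.05 in overexpressing seedlings and 5.42, 5.18 and 5.66 in controls, so that the genotypes did not overlap, as for 7.53% of all clusters with the overexpressing arrays lower, but overexpressing replicate 2 lay close under control replicate 2. Its log2 fold change was -0.39 (0.16), with an unadjusted p of 0.0453 from limma and an adjusted p of 0.721, and gave a signal 0.765 times that of the controls. The unadjusted p rose above 0.05 without any single array other than control replicate 2, to as much as 0.137 without control replicate 3. It also rose above 0.05 in limma with an intensity trend, array weights or either further normalization, where it was 0.0533 to 0.0757, and was 0.0635 by the methods' test.

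*CSLE1* and *CSLE6* are next to each other on chromosome 9, with 0 protein-coding genes between them. *CSLE1* had 7.24, 7.83 and 7.86 in overexpressing seedlings and 6.59, 6.84 and 7.98 in controls, a log2 fold change of 0.51 (0.35). The fold change of *CSLE1* ran from 0.23 without control replicate 1 to 0.93 without control replicate 3, where the unadjusted p from limma was 0.00323, and it was 0.84 with array weights, with a p of 0.0153. On all 6 arrays that p was 0.191, and it was 0.116 to 0.535 without any single array other than control replicate 3. *CSLE6* had 6.69, 6.23 and 5.91 in overexpressing seedlings and 6.51, 6.46 and 5.91 in controls, a log2 fold change of -0.01 (0.24). The arrays parted into the same 2 sets for the 2 neighbours, in opposite directions. On overexpressing replicates 2 and 3 and control replicate 3 *CSLE1* was higher than on the rest, and *CSLE6* was lower.

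Like most clusters, the members had a wider range between replicates of a genotype than the difference between the genotype means. In one genotype or the other this held for all 20 members and for 93.9% of all clusters. A range over arrays is not the same measure as a difference of means. For all 20 the range within the control group was wider than the difference between the genotype means, as it was for 83.0% of all clusters, and the range within the overexpressing group was wider for 17 members and 82.0% of all clusters. The median range of a member over the 6 arrays was 0.97 log2 units, compared with 0.60 for all clusters. Of all clusters 26035 were paired with no gene, and they were not matched to the members by signal. *CESA9*, with a range of 0.48, was the only member under the median of all clusters.

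The 2 extremes fell on the same arrays in many members. Overexpressing replicate 1 was the highest array for 11 of the 20 members and for 17.8% of all clusters, and control replicate 3 was the lowest for 11 members and for 18.7% of all clusters. Both held for 7 members, *CESA1*, *CESA4*, *CESA5*, *CESA6*, *CESA8*, *CSLE6* and *CSLF6*, and for 7.19% of all clusters. Members share their arrays and may share regulation, so these counts describe the 6 arrays and were not tested.

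**Figure D3:**
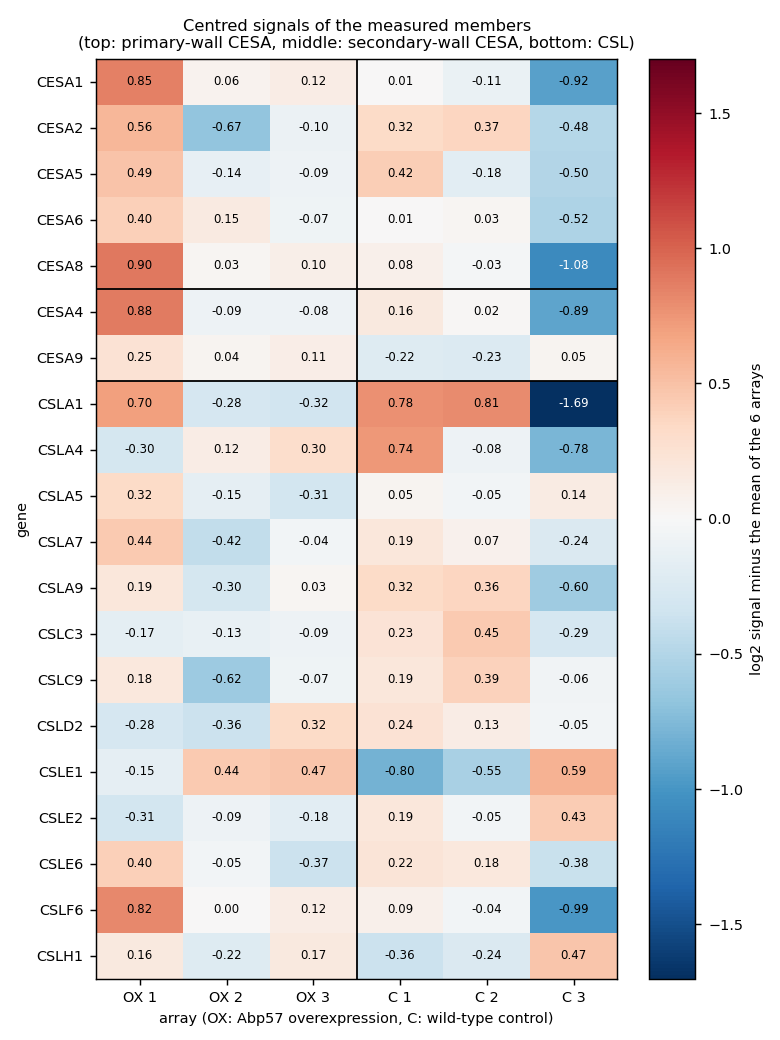
Log2 signal of each member minus its mean over the 6 arrays (colour and printed value), for primary-wall CESA genes (top), secondary-wall CESA genes (middle) and CSL genes (bottom), on overexpressing (OX) and control (C) arrays. *CESA1*, *CESA8*, *CESA4* and *CSLF6* have 0.82 to 0.90 on overexpressing replicate 1 and -1.08 to -0.89 on control replicate 3, and *CSLE1*, *CSLE2* and *CSLH1* are highest on control replicate 3.

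Within this group the signals of *CESA1*, *CESA8*, *CESA4* and *CSLF6* moved almost as one. Taken relative to each gene's own mean, they were 0.82 to 0.90 on overexpressing replicate 1, -0.09 to 0.06 on overexpressing replicate 2 and -0.08 to 0.12 on overexpressing replicate 3. On control replicates 1, 2 and 3 they were 0.01 to 0.16, -0.11 to 0.02 and -1.08 to -0.89. On no array did the 4 genes differ by more than 0.20. By the largest difference from *CESA1* on any array, *CSLF6* ranked 2 among the 41769 other clusters, at 0.08, *CESA8* ranked 15 at 0.16 and *CESA4* ranked 44 at 0.20. The likeness thus joined 2 primary-wall subunits, a secondary-wall subunit and a mixed-linkage glucan synthase, while *CESA9* ranked 16539 at 0.97. These 4 genes were singled out after their values were seen.

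A second order of arrays was seen in 7 members, *CESA2*, *CESA4*, *CSLA1*, *CSLA7*, *CSLA9*, *CSLC9* and *CSLE6*, for which control replicates 1 and 2 and overexpressing replicate 1 lay above the other 3 arrays, as for 8.98% of all clusters. *CSLE1* had the reverse, as 8.54% of all clusters did. Markers of cell division followed a like order. The median of 7 measured division genes, of 10 listed, was 0.19, -0.36 and -0.29 relative to the mean of the 6 arrays in overexpressing replicates 1, 2 and 3 and 0.55, 0.57 and -0.75 in control replicates 1, 2 and 3. Control replicate 3 was the lowest array for 5 of these 7 genes, and the log2 of their summed signal ran from 8.12 to 8.62 in overexpressing seedlings and from 7.69 to 8.99 in controls. The 34 measured expansins, of 53 listed, had medians of -0.09, 0.09 and -0.05 in overexpressing replicates 1, 2 and 3 and 0.12, 0.25 and -0.12 in the controls, with control replicate 3 lowest for 15 of them. The part of cell division in the members' signals was not tested.

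**Figure D4:**
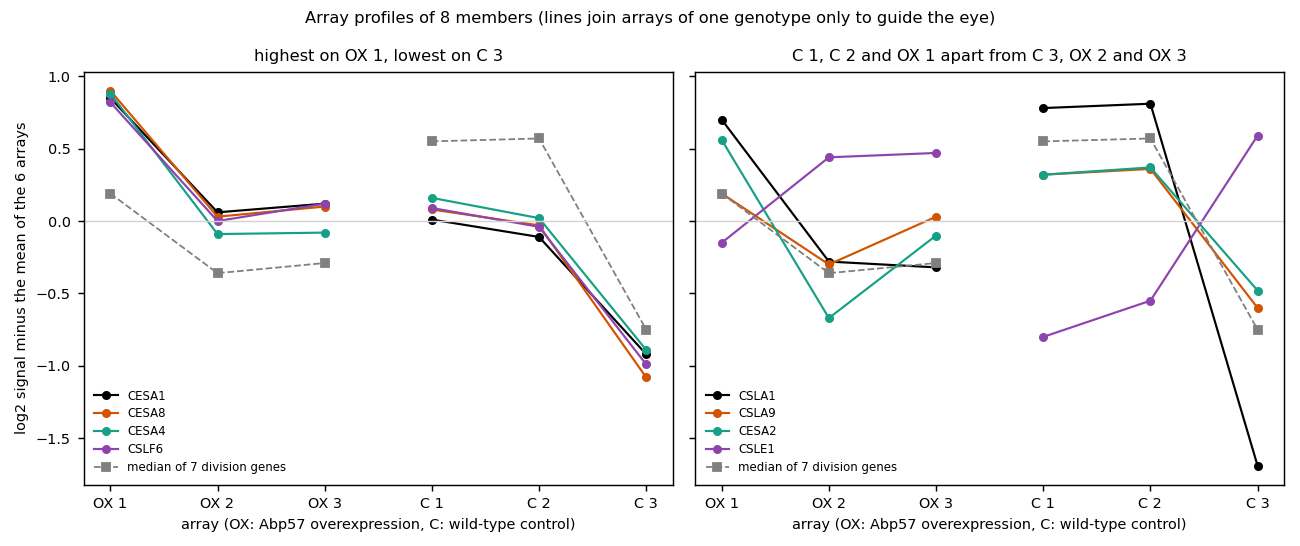
Log2 signal minus the mean of the 6 arrays for *CESA1*, *CESA8*, *CESA4* and *CSLF6* (left) and for *CSLA1*, *CSLA9*, *CESA2* and *CSLE1* (right) on overexpressing (OX) and control (C) arrays, with the median of the 7 division genes in grey. The 4 genes on the left differ by at most 0.20 on any array, and on the right *CSLE1* is high where the other 3 are low.

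When control replicate 3 and overexpressing replicate 1 were both left out, *CESA1*, *CESA8*, *CSLF6* and *CESA4* had log2 fold changes of 0.14 (0.15), 0.04 (0.15), 0.03 (0.15) and -0.18 (0.15), and the median of the primary-wall class was 0.02. *CSLA1*, at 0.07 on 6 arrays, had -1.09 (0.15, adjusted p = 0.0345 by limma) and *CSLE1* had 1.13 (0.16, adjusted p = 0.0412). These 2 passed fold over 2, as 1.40% of all clusters did on the 4 arrays, and the adjusted p, as 0.776% did. At an unadjusted p under 0.05 there were 7 members, *CSLE1* higher and *CESA2*, *CSLA1*, *CSLA9*, *CSLC3*, *CSLC9* and *CSLE6* lower, where 14.6% of all clusters passed, 7.04% as higher and 7.60% as lower. The 2 arrays were chosen after the values were seen. Leaving them out sets control replicates 1 and 2 against overexpressing replicates 2 and 3, which lie on opposite sides of the second order of arrays, so that this order and the genotype cannot be told apart on the 4 arrays.

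Of 35 measured genes in 4 lists of wall synthesis, 5 passed the unadjusted p by limma, 3 as higher and 2 as lower, which is 14.3% against 6.88% of all clusters. The genotypes did not overlap for 7 of the 35 (20.0%, against 13.0% of all clusters), the 5 called genes among them. Of 6 measured partners of cellulose synthesis (21 listed), 0 were higher and 1 was lower at an unadjusted p under 0.05, with a list median of 0.02. That gene was *GLU1*, an endoglucanase of the membrane-bound type that acts with cellulose synthase, with 6.96, 6.84 and 6.98 in overexpressing seedlings and 7.28, 7.41 and 7.56 in controls and a log2 fold change of -0.49 (0.14, adjusted p = 0.615 by limma). Its genotypes did not overlap, as for 7.53% of all clusters with the overexpressing arrays lower, and its fold change was -0.43 without the 2 arrays. Of 9 genes that supply or convert UDP-sugars (20 listed), the sucrose synthase gene *SUS6* was higher, with 7.82, 7.45 and 7.52 in overexpressing seedlings against 7.12, 7.00 and 6.66 in controls, a log2 fold change of 0.67 (0.18, adjusted p = 0.564). The UDP-glucose epimerase gene *UGE3* was lower by the unadjusted p, at -0.42 (0.15), and the list median was -0.07.

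*SUS1*, of the same list and not called, had 11.59, 10.71 and 10.85 in overexpressing seedlings and 11.45, 11.46 and 9.32 in controls, with the same 3 arrays above the rest as for *CSLA1*. Of 7 xylan synthesis genes (16 listed), *GT43A* was higher, at 0.37 (0.14), and the list median was 0.15. Of 13 lignin genes (34 listed), the 4-coumarate:CoA ligase gene *4CL2* was higher, with 7.50, 7.22 and 7.20 in overexpressing seedlings and 6.77, 6.72 and 6.77 in controls, a log2 fold change of 0.55 (0.14, adjusted p = 0.564), and the list median was 0.11. No gene of these 4 lists passed fold over 2 with the unadjusted p or the adjusted p, and none of 16 listed regulators of the secondary wall was measured under a unique name. *GLU1*, *UGE3*, *GT43A*, *SUS1* and the leaf markers were named after their values were seen.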

How the data were processed

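RNA of 6 seedling samples was hybridised to Affymetrix Rice (Cn) Gene 1.0 ST arrays. The authors ran RMA in Affymetrix Expression Console and deposited log2 signals of 41770 transcript clusters, from 1.25 to 13.9 (versions are not given in the sources used here). RMA sets all arrays to one distribution, so a change shared by most genes cannot be seen. No detection calls were used here, and the number of arrays limits the precision.

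Clusters were paired with genes through the platform table and the NCBI rice gene table. There were 15299 clusters with 1 gene, 436 with several and 26035 with none, and for a gene with several clusters the one of highest mean was taken. The array is of *indica* rice and the table of *japonica*, so coordinates are not given. No member was among the 469 clusters that share all 6 signals with another.

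The log2 difference of overexpressing minus control was fitted for every cluster with limma 3.58.1 (R 4.3.3), by lmFit followed by eBayes with neither covariate nor filter, with Benjamini-Hochberg adjustment over all clusters. Errors in parentheses are standard errors of this fit, and p-values are two-sided. The fit was tested on simulated data. Classes and lists are described by counts and medians only.

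The members and gene lists were chosen with earlier results of these data known. Signals on all arrays are given for every CESA gene and for each CSL gene with an unadjusted p under 0.05 or the highest mean or widest range of its letter class, with *CSLA9*, *CSLC3* and *CSLE6* added after their values were seen. Genes of the wall lists are named at an unadjusted p under 0.05 and a log2 fold change over 0.5 in size. The alternatives were the methods' test with folds from means or Tukey's biweight, a replicate block, array weights, a variance trend on intensity, leaving out each array or the 25% dimmest clusters, and a further normalization by quantiles or by cyclic loess. Figures were drawn with matplotlib 3.10.9.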

Additional observations from a re-analysis of the deposited data

How the results depend on the processing

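No member passed fold over 2 with the unadjusted p, or the adjusted p, under any alternative except the added one on 4 arrays, where 2 did by each rule. Members at an unadjusted p under 0.05 numbered 1 (*CSLE2*, lower), but 0 by the methods' test with either fold, with repeated quantile normalization or with cyclic loess, 3 with a replicate block, 0 to 4 without 1 array and 7 on the 4 arrays (1 higher, 6 lower). The 3 with the block were all higher, *CESA1*, *CESA8* and *CSLF6*, with an unadjusted p from limma of 0.0113, 0.0198 and 0.0251, and the same 3 were higher without control replicate 1. Without control replicate 3 there were 4, *CESA9* and *CSLE1* higher and *CSLA1* and *CSLC3* lower. The count was again 1 with an intensity trend and without overexpressing replicate 2 (*CESA1*, higher), with array weights (*CSLE1*, higher) and without overexpressing replicate 3 (*CSLD2*, lower), and 0 without overexpressing replicate 1. The labels do not say whether arrays of the same number belong together. Correlations of deviations from the genotype means were 0.345, -0.11 and 0.206 for numbers 1, 2 and 3. Between unlike numbers they were -0.367 to 0.256. Deviations from a shared mean are tied to one another, so these values cannot decide whether the arrays were paired. The median log2 fold change of CSL genes was -0.01, but -0.22 with array weights, -0.23 on the 4 arrays and -0.27 to 0.08 without 1 array. That of secondary-wall genes was 0.06 on the 4 arrays and 0.18 to 0.47 without 1 array, and that of primary-wall genes 0.14 to 0.43.

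The sign of 10 members was the same under every alternative tried. *CESA4* had -0.17 with biweight folds and -0.18 on the 4 arrays. *CSLA1* had -1.09 with biweight folds and on the 4 arrays, -0.01 with quantile normalization and -0.53 with array weights. *CESA5* and *CSLA4* had -0.06 and -0.10 with array weights and -0.23 and -0.12 on the 4 arrays. With cyclic loess *CSLA7*, *CSLA9* and *CSLE6* had 0.02, 0.01 and 0.01. Without 1 array the fold change ran from -0.45 to 0.16 for *CESA2*, -0.03 to 0.43 for *CESA5*, -0.76 to 0.49 for *CSLA1*, -0.29 to 0.47 for *CSLA4*, -0.27 to 0.04 for *CSLA5*, -0.24 to 0.20 for *CSLA7*, -0.37 to 0.11 for *CSLA9*, -0.22 to 0.17 for *CSLE6* and -0.08 to 0.34 for *CSLH1*. With no change of sign it ran from 0.39 to 0.86 for *CESA1*, 0.15 to 0.67 for *CESA4*, 0.14 to 0.43 for *CESA6*, 0.32 to 0.90 for *CESA8*, 0.21 to 0.36 for *CESA9*, -0.47 to -0.10 for *CSLC3*, -0.51 to -0.11 for *CSLC9*, -0.43 to -0.09 for *CSLD2*, 0.23 to 0.93 for *CSLE1*, -0.51 to -0.27 for *CSLE2* and 0.29 to 0.83 for *CSLF6*. The causes were not tested. All members had a single cluster and passed the filter on dim clusters, so averaging clusters changed nothing, and the counts stayed as they were without *CSLA7* and *CSLD2*.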
